A study of Mus musculus with 11 samples.

Results

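The genes described here were 10 members of the actin cytoskeleton, Lcp1, Lsp1, Coro1a, Was, Rac2, Tmsb4x, Actb, Cfl1, Pfn1 and Arpc1b, of 35814 gene symbols in the count table. They were chosen by symbol, with their measured values in these libraries already known, so their own levels and fold changes are given as a description without a test. Lcp1, Lsp1, Coro1a, Was and Rac2 are genes whose expression is largely restricted to leukocytes, and Tmsb4x, Actb, Cfl1, Pfn1 and Arpc1b are expressed in most cell types. RNA was sequenced from CD4+ T cells of the kidneys of adult male C57BL/6 mice on day 2 after renal ischemia–reperfusion injury (IRI), in 3 CD4cre, 5 CD4IKK1Δ and 3 CD4NIKΔ libraries, each labelled as a separate biological replicate. CD4cre mice, labelled WT, carried Cre recombinase under the CD4 promoter, CD4IKK1Δ mice in addition a floxed IKK1 gene (Chuk), and CD4NIKΔ mice a floxed NIK gene (Map3k14), both encoding kinases of NFκB activation. The CD4 promoter is also active in the CD8 lineage, so deletion need not be limited to CD4+ T cells in these mice, which was not examined here. No sham-operated library was analysed here.

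T cells crawl, form synapses and squeeze through vessel walls by building and taking apart actin filaments. Profilin and thymosin β4 hold the actin monomers, small GTPases switch on nucleation factors such as WASP, these activate the Arp2/3 complex to branch filaments, plastin and coronin shape the resulting network, and cofilin severs old filaments. Several of these steps use a gene copy found mainly in blood cells, while another copy serves other tissues, and loss of WAS, CORO1A, RAC2 or ARPC1B function in people causes immunodeficiency.

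The libraries held between 15751632 and 25737046 estimated counts. The T cell markers differed widely between them: counts of the T cell receptor constant genes ranged from 12558 to 35820 in CD4cre, from 41 to 11413 in CD4IKK1Δ and from 60124 to 111648 in CD4NIKΔ libraries, and CD4IKK1Δ replicates 1 and 2, with 41 and 868, stood apart. The summed level of 15 pan T cell markers was, in CPM (counts scaled by library total and TMM factor), 1364 to 2267 in CD4cre, 219 to 1128 in CD4IKK1Δ and 6608 to 8858 in CD4NIKΔ, none of the 15 at 0 throughout a group. Neural markers, which CD4+ T cells are not known for, summed to 1842 to 2192, 2388 to 2600 and 603 to 1325 CPM over 8 genes, none of them at 0 throughout a group. The 12 myeloid markers summed to 355 to 1541, 83.2 to 201 and 528 to 818 CPM, with S100a9 at 0 in all CD4cre and CD4NIKΔ libraries. In the same order of groups, 9 tubule markers summed to 18.4 to 79.9, 3.41 to 11.3 and 13.9 to 111 CPM. The sums were, for 4 endothelial markers, 15.9 to 21.4, 8.17 to 12.5 and 23.2 to 51.4, with Cdh5 at 0 in all CD4cre and CD4NIKΔ libraries, for 4 erythroid markers 1951 to 2547, 516 to 1539 and 1127 to 7646, and for 4 B cell markers 2.00 to 5.77, 0.547 to 5.49 and 3.59 to 24.3. Chuk stood at 20.4 ± 4.5 CPM (SD, n = 5) in CD4IKK1Δ and 22.1 ± 9.7 (SD, n = 3) in CD4cre, and Map3k14 at 22.5 ± 9.1 (SD, n = 3) in CD4NIKΔ and 17.9 ± 2.8 in CD4cre, so the deletions were not visible in these values, which do not show whether single exons were lost.

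Promoter sequences are shown first because several of the members varied together across the libraries. RefSeq promoter entries (GRCm38.p6; 250 bases before to 50 after the start) matched 7 of the 10 members, with 2 entries each for Lcp1 and Coro1a; Lsp1, Rac2 and Actb were not matched. The sequences of 2 leukocyte-restricted members and of 2 broadly expressed members, one that hardly varied and one that varied as widely as the leukocyte-restricted genes, run 5′ to 3′ on the gene's strand. Capitals mark AGGAAG or, read on the other strand, CTTCCT, the letters of a core often found in sites of ETS-family factors.

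Was, minus strand, chrX:8090442-8090741: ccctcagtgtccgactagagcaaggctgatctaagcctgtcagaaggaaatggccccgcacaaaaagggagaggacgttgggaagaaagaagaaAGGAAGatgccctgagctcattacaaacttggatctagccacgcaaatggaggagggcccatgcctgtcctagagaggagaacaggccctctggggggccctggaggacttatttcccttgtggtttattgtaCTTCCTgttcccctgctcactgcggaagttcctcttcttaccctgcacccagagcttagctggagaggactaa
Coro1a, minus strand, chr7:126704171-126704470: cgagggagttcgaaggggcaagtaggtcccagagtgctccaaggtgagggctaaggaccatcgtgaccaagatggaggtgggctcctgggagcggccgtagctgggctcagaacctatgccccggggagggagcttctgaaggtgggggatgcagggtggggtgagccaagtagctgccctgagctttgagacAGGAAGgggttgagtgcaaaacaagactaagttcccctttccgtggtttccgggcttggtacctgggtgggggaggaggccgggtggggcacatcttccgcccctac
Tmsb4x, minus strand, chrX:167209169-167209468: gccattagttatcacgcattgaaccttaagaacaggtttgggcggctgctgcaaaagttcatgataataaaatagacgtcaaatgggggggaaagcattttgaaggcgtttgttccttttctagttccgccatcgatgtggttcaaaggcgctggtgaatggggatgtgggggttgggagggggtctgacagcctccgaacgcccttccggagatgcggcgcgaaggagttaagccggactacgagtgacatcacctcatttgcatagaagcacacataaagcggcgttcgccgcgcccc
Arpc1b, plus strand, chr5:145114006-145114305: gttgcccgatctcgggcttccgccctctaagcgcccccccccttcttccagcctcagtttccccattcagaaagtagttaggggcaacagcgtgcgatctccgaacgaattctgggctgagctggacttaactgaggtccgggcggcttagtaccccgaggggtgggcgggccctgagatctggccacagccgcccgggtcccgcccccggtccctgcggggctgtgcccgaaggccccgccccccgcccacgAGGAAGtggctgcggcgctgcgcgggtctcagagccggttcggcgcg

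Was, which encodes WASP, held 2 copies of the motif, beginning 156 and 23 bases before the start, and Coro1a held 1, beginning 57 bases before it. Of the 9 member entries 4 held the motif on either strand, the other 2 being Pfn1 and Arpc1b, against 35.4% of all 32851 mouse promoters of this length, so its presence did not set the members apart. No member entry held a CArG box, the serum response factor motif searched on both strands and found in 1.63% of all promoters, or TATAAA on the sense strand, found in 8.32%. The entries differed in CG dinucleotides. Was held 5, the downstream Lcp1 entry 4 and the downstream Coro1a entry 10, while Pfn1 held 14, Tmsb4x 20, Cfl1 22 and Arpc1b 29, against a median of 7 in all promoters, and the upstream entries of Lcp1 and Coro1a held 19 each. A match of these letters is a description of the sequence and not a binding site.

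Among the leukocyte-restricted members, all 5 had their highest levels in CD4NIKΔ libraries and their lowest in CD4IKK1Δ replicates 1 or 2. All levels below are in CPM after TMM normalization over the 11 libraries. Because symbols of genes that most cells use, such as Rhoa (5.44 CPM in CD4cre) and Cap1 (2.66), had very low values in the table, whether each symbol holds all transcripts of its gene is not known. The level of one gene is therefore not read as higher or lower than that of another. Where genes are set against each other below, as a ratio, a share or a difference of means, the value is compared between libraries only.

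Lcp1, which encodes the filament-bundling protein L-plastin (chromosome 14, GRCm39 75367978 to 75468289, plus strand), was at 100.4, 121 and 83.2 CPM in the 3 CD4cre libraries, at 3.36, 7.07, 121, 35.8 and 19.6 in the 5 CD4IKK1Δ libraries and at 1241, 1154 and 1193 in the 3 CD4NIKΔ libraries. The CD4NIKΔ libraries lay within 1.08-fold of each other and above all others, whereas the CD4IKK1Δ libraries spanned 35.9-fold, 4 of them below every control and replicate 3 among the controls. The log2 fold change (± SE) was -1.44 ± 1.06 in CD4IKK1Δ against CD4cre, 3.55 ± 0.21 in CD4NIKΔ against CD4cre and -5.00 ± 0.98 in CD4IKK1Δ against CD4NIKΔ.

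Lsp1 encodes an F-actin binding protein of lymphocytes and neutrophils (chromosome 7, 142010740 to 142048604, plus strand). It was at 270.4, 217 and 189.9 CPM in CD4cre, at 2.78, 24.4, 193, 33.6 and 55.8 in CD4IKK1Δ and at 1188, 1262 and 1150.2 in CD4NIKΔ. Again 4 CD4IKK1Δ libraries lay below every control, and replicate 3 lay just above the lowest control. The log2 fold changes were -1.87 ± 1.07, 2.40 ± 0.20 and -4.28 ± 0.95 in the same order of comparisons.

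Rac2, a small GTPase of blood cells (chromosome 15, 78443367 to 78457429, minus strand), was at 292, 625 and 225 CPM in CD4cre, at 1.94, 16.4, 316, 93.7 and 35.8 in CD4IKK1Δ and at 1591, 3511 and 3382 in CD4NIKΔ. It had the widest range of the 10 members, 1810-fold between the lowest and the highest library, which was wider than for 99.6% of the tested genes. Its log2 fold changes were -2.03 ± 1.33, 2.87 ± 0.45 and -4.93 ± 1.23.

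Coro1a, a coronin that T cells need for migration and survival (chromosome 7, 126298942 to 126307022, minus strand), differed from the other leukocyte-restricted members in CD4IKK1Δ. It was at 67.1, 17.7 and 27.8 CPM in CD4cre, at 2.65, 2.46, 7.58, 10.3 and 4.51 in CD4IKK1Δ and at 205, 198 and 173 in CD4NIKΔ. All 5 CD4IKK1Δ libraries were below all 3 controls, including replicate 3, and they spanned 4.20-fold, less than for Lcp1, Lsp1, Was or Rac2. The log2 fold changes were -2.77 ± 0.55, 2.34 ± 0.44 and -5.12 ± 0.54, and the second was 3.06 without CD4cre replicate 1, the highest control. Coro1a overlaps Bola2 on the opposite strand, which had up to 1776 counts, and whether the counting used strand is not given in the sources used here.

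Was (chromosome X, 7947405 to 7956737, minus strand) was the member with the fewest counts, 4 to 490 per library. It was at 5.96, 8.91 and 6.72 CPM in CD4cre, at 0.259, 1.73, 6.40, 2.44 and 1.94 in CD4IKK1Δ and at 9.22, 24.1 and 22.1 in CD4NIKΔ. The order of the groups was that of the other leukocyte-restricted members, with log2 fold changes of -1.49 ± 0.77, 1.34 ± 0.43 and -2.85 ± 0.69, those with CD4NIKΔ being smaller in size than theirs. With the libraries scaled to the pan T cell markers these became -0.85 and 0.81.

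**Figure D1:**
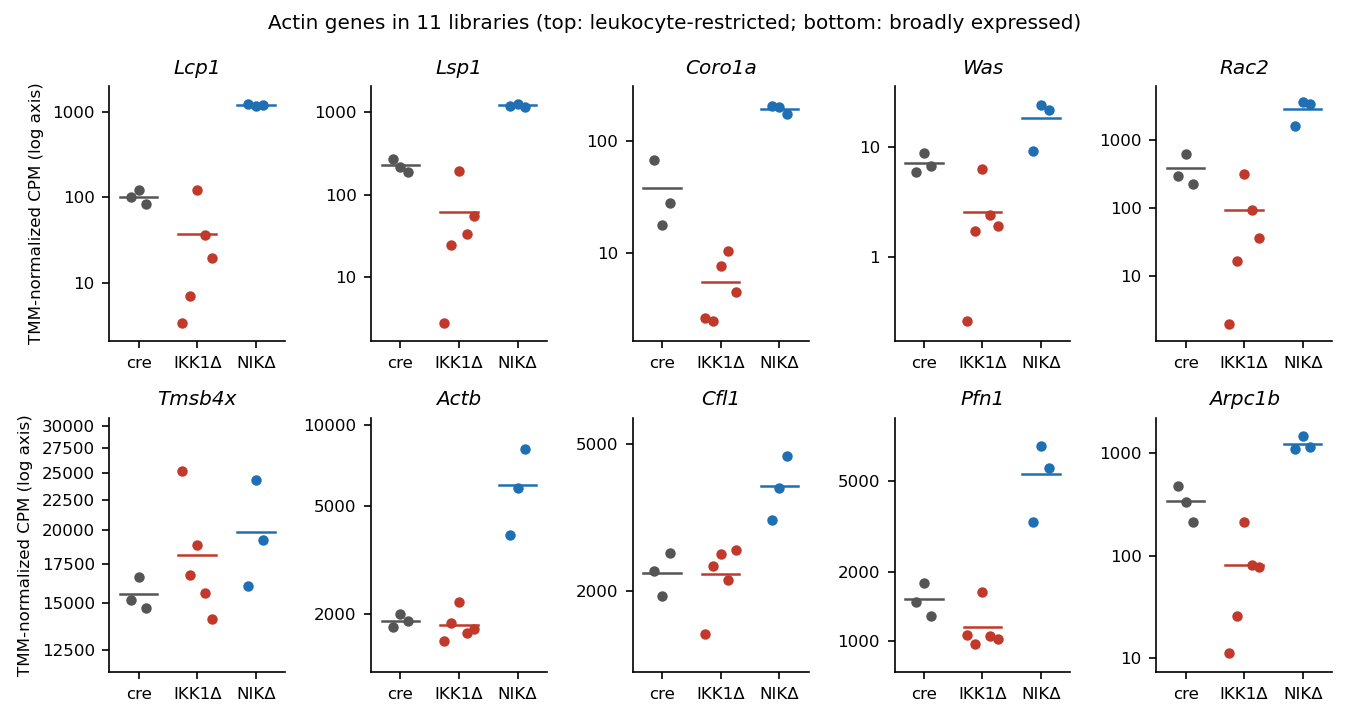
TMM-normalized CPM (log axes, each panel with its own range) of the 10 members in 3 CD4cre (grey), 5 CD4IKK1Δ (red) and 3 CD4NIKΔ (blue) libraries, points in replicate order and bars at group means. The 5 leukocyte-restricted members and Arpc1b span from 83.2-fold (Coro1a) to 1810-fold (Rac2) over the 11 libraries, the other 4 members from 1.78-fold (Tmsb4x) to 7.36-fold (Pfn1).

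The broadly expressed members did not form one group. Tmsb4x, which encodes the monomer-binding peptide thymosin β4 (chromosome X, 165990089 to 165992311, minus strand), took 1.48% to 2.42% of all counts in every library. It was at 15175, 16636 and 14722 CPM in CD4cre, at 25131, 16766, 18817, 15614 and 14114 in CD4IKK1Δ and at 16035, 24305 and 19215 in CD4NIKΔ. The groups overlapped in all 3 comparisons, the range was 1.78-fold, narrower than for all but 5.02% of the tested genes, and the highest library was CD4IKK1Δ replicate 1, in which most leukocyte-restricted members were lowest. The log2 fold changes were 0.22 ± 0.17, 0.34 ± 0.23 and -0.13 ± 0.18. With the libraries scaled to the pan T cell markers the last 2 turned to -1.80 and 4.24.

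Actb, cytoplasmic β-actin (chromosome 5, 142888870 to 142892509, minus strand), was at 1793, 1997 and 1888 CPM in CD4cre, at 1587, 1851, 2211, 1698 and 1765 in CD4IKK1Δ and at 3911, 5847 and 8175 in CD4NIKΔ. CD4IKK1Δ and CD4cre libraries were mixed in order, and every CD4NIKΔ library was above both. The log2 fold changes were -0.05 ± 0.10, 1.64 ± 0.28 and -1.71 ± 0.19. Actb is often used as a reference gene, and its mean was 3.12-fold higher in CD4NIKΔ than in CD4cre on the fitted scale. The direction turned with the libraries scaled to the pan T cell markers (-0.54 on the log2 scale) and relative to Ptprc, given below.

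Pfn1, profilin 1, which hands monomers to growing filament ends (chromosome 11, 70540882 to 70545976, minus strand), was at 1477, 1782 and 1288 CPM in CD4cre, at 1062, 965, 1633, 1054 and 1018 in CD4IKK1Δ and at 3306, 7109 and 5687 in CD4NIKΔ. Only replicate 3 of the CD4IKK1Δ libraries reached the controls. The log2 fold changes were -0.40 ± 0.17, 1.80 ± 0.30 and -2.23 ± 0.23. All 3 turned with the pan T cell scale (1.62, -0.34 and 1.96). Pfn1 overlaps Rnf167 on the opposite strand, which had up to 7115 counts.

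Cfl1, the filament-severing cofilin 1 (chromosome 19, 5540483 to 5545229, plus strand), was at 2271, 1941 and 2537 CPM in CD4cre, at 1534, 2339, 2527, 2153 and 2587 in CD4IKK1Δ and at 3124, 3812 and 4649 in CD4NIKΔ. Its pattern was that of Actb at a smaller size, with log2 fold changes of -0.01 ± 0.16, 0.76 ± 0.22 and -0.79 ± 0.18. They became 1.95, -1.41 and 3.36 on the pan T cell scale. It overlaps Snx32 on the opposite strand, with up to 2621 counts.

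Arpc1b, a subunit of the Arp2/3 complex that is expressed in most cells and strongly in blood cells (chromosome 5, 145051025 to 145067515, plus strand), varied as the leukocyte-restricted members did. It was at 478, 337 and 216 CPM in CD4cre, at 11.2, 25.8, 212, 82.5 and 77.8 in CD4IKK1Δ and at 1113, 1466 and 1160.4 in CD4NIKΔ. All CD4IKK1Δ libraries lay below all controls, replicate 3 by a small margin, and the range over the 11 libraries was 131-fold. The log2 fold changes were -2.07 ± 0.88, 1.84 ± 0.29 and -3.93 ± 0.77. The second turned to -0.20 on the pan T cell scale. Arpc1b overlaps Pdap1 on the opposite strand, which had up to 3106 counts. On the log2 scale with a prior count of 2, which shrinks the range of genes with few counts such as Was, 6 of the 10 members had a range of at least 6.06 over the libraries, against a median of 2.67 over the tested genes.

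**Figure D2:**
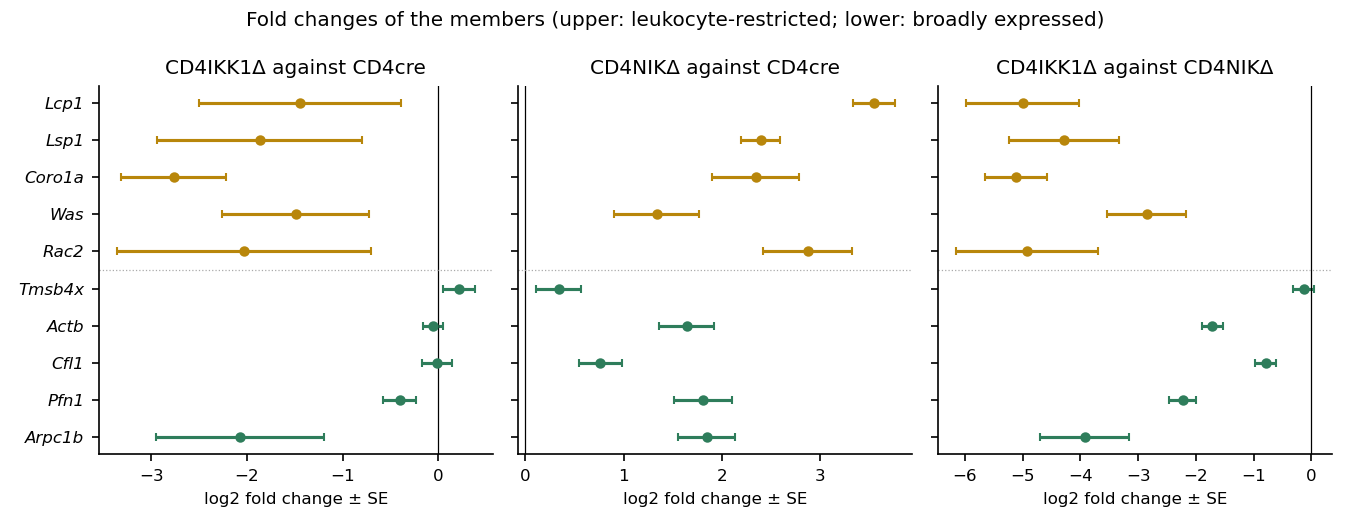
Log2 fold changes (x axis, points) with their SE (bars) of the 5 leukocyte-restricted members (ochre) and the 5 broadly expressed members (green) in the 3 comparisons; the x axes differ between panels. In CD4IKK1Δ against CD4cre, Arpc1b (-2.07) lies with the leukocyte-restricted members, and Tmsb4x, Actb, Cfl1 and Pfn1 lie between -0.40 and 0.22.

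The mean log2 CPM of the leukocyte-restricted members minus that of the broad members gave 1 value per library. It was -4.82 ± 0.12 (SD, n = 3) in CD4cre, -6.91 ± 1.40 (SD, n = 5) in CD4IKK1Δ and -3.54 ± 0.08 (SD, n = 3) in CD4NIKΔ. The 5 CD4IKK1Δ libraries, in replicate order, were at -9.01, -7.39, -5.31, -6.12 and -6.74, all below the controls, whose lowest was -4.96, and all CD4NIKΔ libraries were above them. These values depend on Arpc1b, which varied as the leukocyte-restricted members did. With Arpc1b left out of the broad members they ran from -5.72 to -5.28 in CD4cre, from -10.6 to -6.13 in CD4IKK1Δ and from -4.17 to -3.89 in CD4NIKΔ. Between groups, the mean fitted log2 fold change of the leukocyte-restricted members differed from that of the broad members by -1.46 in CD4IKK1Δ against CD4cre, 1.22 in CD4NIKΔ against CD4cre and -2.68 in CD4IKK1Δ against CD4NIKΔ, as a description. Another scaling of the libraries moves both sets of members alike within a library. The signs of these fitted values stayed the same on the pan T cell scale, where they were -2.02, 1.26 and -3.27. With TMM scaling and without CD4IKK1Δ replicates 1 and 2 the first was -1.03 and the third -2.25, and in a fit with the replicate number as a block they were -2.54 and -3.30. The values had the same order of groups as the summed pan T cell markers and the opposite order to the neural markers, and the part of either in them was not tested. In bulk RNA, fewer leukocytes in a library and less of these RNAs per cell cannot be told apart.

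Relative to Ptprc, the leukocyte surface protein CD45, the leukocyte-restricted members and Arpc1b differed less between CD4cre and CD4NIKΔ. The count ratio of Lsp1 to Ptprc was 0.891 to 1.53 in CD4cre and 0.955 to 1.43 in CD4NIKΔ, and that of Arpc1b 1.38 to 1.94 and 0.963 to 1.66, so these groups overlapped. Lcp1 stood out, at 0.407 to 0.670 in CD4cre and 0.990 to 1.31 in CD4NIKΔ, without overlap. The ratio of Was was 0.0242 to 0.0540 in CD4cre and 0.00977 to 0.0273 in CD4NIKΔ. In CD4IKK1Δ the ratio of Rac2 ran from 0.102 to 4.12, against 1.18 to 2.56 in CD4cre, whereas that of Coro1a ran from 0.0509 to 0.137, against 0.0724 to 0.272. Ptprc itself averaged 205 ± 70.0 CPM in CD4cre, 58.7 ± 32.3 in CD4IKK1Δ and 1011 ± 171 in CD4NIKΔ (SD, n = 3, 5 and 3). By construction, a gene of nearly constant level takes the opposite order of ratios. The ratios of Tmsb4x, Actb and Cfl1 to Ptprc were highest in CD4IKK1Δ and lowest in CD4NIKΔ with no overlap. That of Tmsb4x was 61.5 to 119 in CD4cre, 159 to 1308 in CD4IKK1Δ and 16 to 27.5 in CD4NIKΔ, that of Actb 7.27 to 15.2, 19.9 to 82.6 and 4.14 to 6.79, and that of Cfl1 7.96 to 20.4, 26.7 to 82.4 and 3.31 to 4.32. Pfn1, at 5.99 to 10.4, 11.5 to 55.3 and 3.5 to 8.06, was also highest in CD4IKK1Δ, while CD4cre and CD4NIKΔ overlapped.

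The order of the levels is given as a description beside its share over all tested genes, and nothing is read from it, since the members were chosen on these values. Every CD4IKK1Δ library was below every control for 2 members, Coro1a and Arpc1b (8.44% of tested genes). Every CD4NIKΔ library was above every control for 9 members (22.9% of tested genes), and every CD4IKK1Δ library below every CD4NIKΔ library for the same 9 (24.4%), Tmsb4x being the exception in both. The 2 comparisons with CD4cre share its 3 libraries.

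For 9 members a paralog of wider or different tissue use was set beside the member. Where the member was leukocyte-restricted, every CD4NIKΔ library was below every control for the paralogs of Lcp1 and Was (22.4% of tested genes) and above every control for those of Coro1a and Rac2 (22.9%). Pls3, the plastin of non-blood cells, was at 94.4, 142 and 158 CPM in CD4cre, at 167, 174, 171, 142 and 151 in CD4IKK1Δ and at 71.5, 50.0 and 29.9 in CD4NIKΔ, and it fell in CD4NIKΔ against CD4cre by 1.39 ± 0.35 on the log2 scale (edgeR's quasi-likelihood test, FDR = 0.0281), a call lost in the replicate block and in 4 of the 6 fits that left out 1 library. Wasl, the N-WASP gene, was -0.84 ± 0.21 (FDR = 0.0266), under the 2-fold limit, and rose by 1.17 ± 0.15 in CD4IKK1Δ against CD4NIKΔ (edgeR, FDR = 0.00017). Rac1, the GTPase found in most cells, was 0.60 ± 0.17 in CD4NIKΔ against CD4cre (FDR = 0.0416), also under the limit. Its 11 libraries spanned 2.02-fold, where Rac2 spanned 1810-fold.

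Coro1b went the same way as Coro1a. It was at 155, 152 and 95.1 CPM in CD4cre, at 36.2, 45.0, 89.4, 58.8 and 50.9 in CD4IKK1Δ and at 369, 399 and 314 in CD4NIKΔ, with no overlap between any pair of groups. It rose in CD4NIKΔ against CD4cre by 1.42 ± 0.23 (edgeR, FDR = 0.00842) and fell in CD4IKK1Δ against CD4NIKΔ by 2.69 ± 0.26 (FDR = 4.01e-05). Both directions turned with the libraries scaled to the pan T cell markers (-0.65 and 1.31). Against CD4cre, the CD4IKK1Δ libraries were at -1.26 ± 0.27 (FDR = 0.0901), and DESeq2 called it.

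Among the paralogs of the broad members, Pfn2 and Cfl2 were below every control in the CD4NIKΔ libraries (22.4% of tested genes), and Actg1, Tmsb10 and Arpc1a were above (22.9%). The margins were small for Tmsb10 (lowest CD4NIKΔ library 296 CPM, highest control 293) and Arpc1a (8.26 and 7.45). Pfn2, the profilin of neurons, was at 461, 546 and 593 CPM in CD4cre, at 685, 721, 626, 712 and 667 in CD4IKK1Δ and at 375, 191 and 166 in CD4NIKΔ, the reverse of the order of Pfn1. It fell in CD4NIKΔ against CD4cre by 1.13 ± 0.32 (edgeR, FDR = 0.0403), a call lost in the replicate block and in 5 of the 6 fits that left out 1 library, and rose in CD4IKK1Δ against CD4NIKΔ by 1.48 ± 0.23 (FDR = 0.000393). Cfl2, the muscle cofilin, was -0.69 ± 0.24 (FDR = 0.0747) and 0.99 ± 0.19 (FDR = 0.0012) in these comparisons. Actg1, the γ-actin gene, rose in CD4NIKΔ against CD4cre by 2.74 ± 0.48 (edgeR, FDR = 0.0104) and fell in CD4IKK1Δ against CD4NIKΔ (-4.86 ± 0.69, FDR = 0.00024), on only 4 to 1087 counts per library. Both calls were lost on the pan T cell scale (0.67 and -0.82). Tmsb10 rose by 1.15 ± 0.34 (FDR = 0.0446), where Tmsb4x was 0.34 ± 0.23. The call of Tmsb10 was lost with library size scaling, without the filter on low counts, with all 11 libraries in the fit, in the replicate block and in 5 of the 6 fits that left out 1 library. On the pan T cell scale it was called lower (-1.05). Arpc1a, with 35 to 339 counts, did not pass in any comparison of the reported fit (0.24 ± 0.67, 0.90 ± 0.46 and -0.68 ± 0.60). In CD4IKK1Δ against CD4NIKΔ it was called lower in the replicate block (-1.64) and without CD4IKK1Δ replicate 5 (-1.37). On the pan T cell scale it was called higher there (3.40) and in CD4IKK1Δ against CD4cre (2.23).

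The share of the member in the counts of the pair put these differences on a scale that does not depend on the library's scaling, though it is a share of reads and not of molecules. Lcp1 made up 44.0% ± 8.7 (SD, n = 3) of the Lcp1 and Pls3 counts in CD4cre, 15.8% ± 16 (SD, n = 5) in CD4IKK1Δ and 96.0% ± 1.5 (SD, n = 3) in CD4NIKΔ. Rac2 made up 55.2% ± 13, 20.6% ± 22.7 and 85.6% ± 6.1 of Rac1 and Rac2. Pfn1 made up 73.7% ± 4.6, 62.1% ± 5.9 and 94.8% ± 4.3 of Pfn1 and Pfn2. In these 3 pairs CD4IKK1Δ overlapped with CD4cre, through its highest libraries (41.4% for Lcp1, 56.7% for Rac2 and 72.3% for Pfn1). In 7 of the 9 pairs every CD4NIKΔ library was above every library of the other groups. The pairs of Actb and Tmsb4x went the other way: Actb made up 99.7% ± 0.21 of Actb and Actg1 in CD4cre, 99.9% ± 0.070 in CD4IKK1Δ and 99.3% ± 0.16 in CD4NIKΔ, which was below the others without overlap. Tmsb4x made up 98.2% ± 0.19, 98.9% ± 0.68 and 97.0% ± 1.0 of Tmsb4x and Tmsb10, with overlap. The summed neural markers were lower in CD4NIKΔ than in the other groups, and their part in the shares was not tested.

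**Figure D3:**
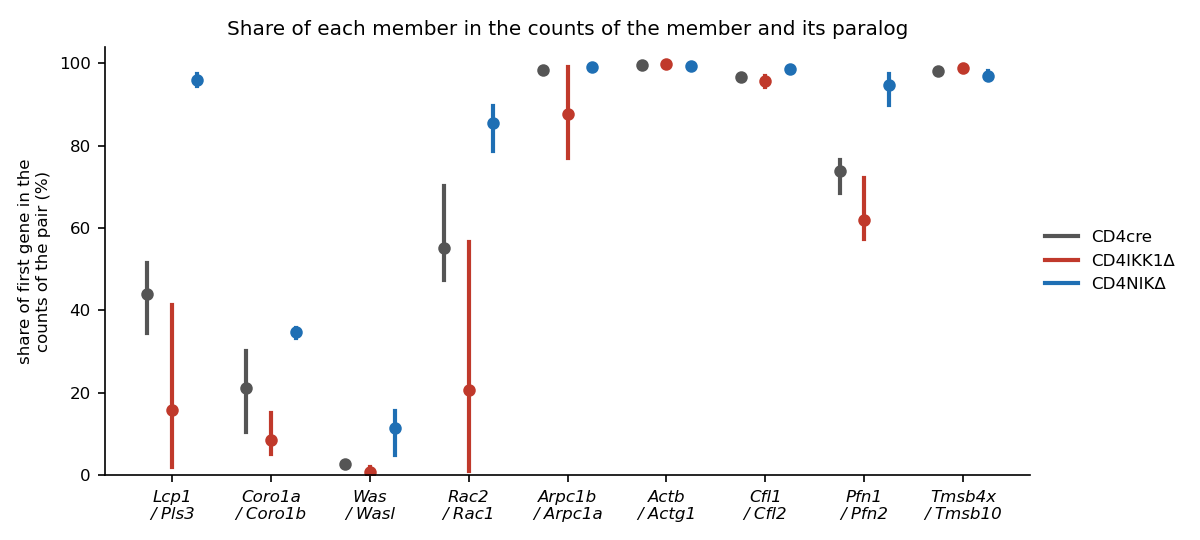
Share (%, y axis) of each member in the estimated counts of the member and its paralog (x axis), with the group mean (point) and the lowest to highest library (line) in CD4cre (grey), CD4IKK1Δ (red) and CD4NIKΔ (blue). The share of Lcp1 is 44.0% in CD4cre, 15.8% in CD4IKK1Δ and 96.0% in CD4NIKΔ, while the pairs of Actb and Tmsb4x stay above 96% in every library.

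The other actin genes were taken as 3 lists of non-members, drawn up, like the members, with earlier results of these data known. Their counts are therefore no independent support for the pattern of the members. Calls were made at an FDR under 0.05 and a change over 2-fold in edgeR's quasi-likelihood test. Of 25 further leukocyte-restricted regulators 23 passed the filter on low counts, Hcls1 and Plek being too low. Between CD4IKK1Δ and CD4cre, 23 of 23 had a negative log2 fold change and the median was -1.93 (range -2.62 to -0.24), against a median of 0.02 over all genes. Of the 23, 0 passed the test, as did 0% of all 15653 tested genes in either direction, whose smallest edgeR FDR was 0.0543. At an unadjusted p under 0.05, 16 of 23 were lower, against 8.91% of all tested genes, where 1394 genes were lower and 1198 higher. DESeq2 called 9 of the 23 lower (2.92% of all genes), and without CD4IKK1Δ replicates 1 and 2 edgeR called 4, Arhgap9, Bin2, Fermt3 and Rhoh (0.239% of all genes). In the same comparison the log2 fold change was negative for 14 of 15 pan T cell markers (median -2.04), 7 of 7 tested tubule markers (median -2.38), 6 of 7 myeloid (-2.82), 3 of 3 endothelial (-2.16) and 3 of 4 erythroid markers (-1.18), and positive for 8 of 8 neural markers (0.33) and for 1 of 2 tested B cell markers (Ms4a1, 2.63 ± 1.18). None of these passed, and their part in the list's values was not tested. The smallest p belonged to Vav1, a Rac guanine nucleotide exchange factor, at -2.08 ± 0.63 (edgeR's quasi-likelihood test, FDR = 0.159) and to Rhoh, a GTPase of blood cells, at -2.49 ± 0.52 (FDR = 0.0905).

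Of these 23 genes, 18 rose in CD4NIKΔ against CD4cre and none fell, where 10.4% of all tested genes rose and 6.99% fell, and the median log2 fold change was 1.69, against -0.02 over all genes. Of the 15 pan T cell markers 11 rose, with a median of 1.86, and their part in the list's values was not tested. With all 11 libraries in the fit 3 of the 23 rose, Arhgap15, Pstpip1 and Rhoh. In the reported fit the smallest p belonged to Arhgap9 (1.96 ± 0.19, edgeR FDR = 0.00191), Arhgap30 (1.96 ± 0.20, FDR = 0.0023), Arhgdib (2.25 ± 0.28, FDR = 0.00364) and the membrane-bending protein Bin2 (2.27 ± 0.29, FDR = 0.00415), none of them called with all 11 libraries. The 5 that did not pass, named after their values were seen, were Fmnl1 (0.14 ± 0.37), Arhgap45 (0.33 ± 0.19), Fgd3 (0.92 ± 0.46), Myo1f (0.99 ± 1.30) and Gmfg (1.02 ± 0.38). In CD4IKK1Δ against CD4NIKΔ, 20 of 23 fell and none rose, where 18.5% of all tested genes fell and 14.8% rose, and the median was -3.61, against 0.06 over all genes. In this comparison 13 of 15 pan T cell markers fell (median -3.91), as did 4 of 7 myeloid, 3 of 8 tubule, 1 of 3 endothelial, 3 of 4 erythroid and 1 of 3 B cell markers, and their part in the list's values was not tested. The smallest p belonged to Pstpip1, a WASP-binding adaptor (-2.59 ± 0.31, edgeR FDR = 0.000111), Rhoh (-4.63 ± 0.52, FDR = 0.000143), Arhgap15 (-2.56 ± 0.33, FDR = 0.000171) and Nckap1l, the blood cell subunit of the WAVE complex (-3.29 ± 0.54, FDR = 0.000566). With the pan T cell markers as the scale, the medians of this list were -0.50, -0.38 and -0.03, so the sign of the second turned. On that scale 4 of the 23 were called lower and 0 higher in CD4NIKΔ against CD4cre, none of them among the 18, and 1 lower and 3 higher in CD4IKK1Δ against CD4NIKΔ, the higher ones being Fmnl1 and, of the falls named above, Pstpip1 and Arhgap15. Over all genes that scale called 10469 of 15209 lower and 121 higher in CD4NIKΔ against CD4cre. In CD4IKK1Δ against CD4NIKΔ it called 161 of 16546 lower and 13401 higher.

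The 54 broadly expressed actin genes with a row were more mixed. Between CD4IKK1Δ and CD4cre, 32 of 52 tested genes had a negative and 20 a positive log2 fold change, with a median of -0.17, and none passed (11 were lower and 7 higher at an unadjusted p under 0.05). The smallest p belonged to Coro1b, given above, and to Zyx, zyxin of focal adhesions, at -2.01 ± 0.47 (edgeR's quasi-likelihood test, FDR = 0.0938). DESeq2 called 4 lower, Coro1b, Myh9, Tpm4 and Zyx, of which Myh9 and Tpm4 are named only for this call. Between CD4NIKΔ and CD4cre, 14 rose and 3 fell (Nckap1, Coro1c and Pls3) of 51, with a median of 0.74, where 10.4% of all genes rose and 6.99% fell, so the falls were no more frequent than over all genes. The call of Coro1c was lost without the filter on low counts. Of the fits that left out 1 library, it stayed only in that without CD4cre replicate 3. The rises with the smallest p were Zyx (2.49 ± 0.26, edgeR FDR = 0.00239), the myosin light chain Myl12a (2.45 ± 0.26, FDR = 0.00239), the membrane linker Ezr (2.56 ± 0.33, FDR = 0.00429) and the kinase Rock1 (1.42 ± 0.20, FDR = 0.0049), and Nckap1, the WAVE complex subunit of non-blood cells, fell by 1.81 ± 0.23 (FDR = 0.00401) while its blood cell relative Nckap1l rose by 1.57 ± 0.31 (FDR = 0.0157). In CD4IKK1Δ against CD4NIKΔ, 19 of 52 fell and 7 rose, with a median of -0.83, where 18.5% of all genes fell and 14.8% rose, so the rises were about as frequent as over all genes. Capzb, Rock1, Coro1b and Zyx fell with the smallest p, from -1.21 ± 0.11 for the filament-capping subunit Capzb (edgeR FDR = 2.96e-05) to -4.52 ± 0.44 for Zyx (FDR = 5.56e-05). Tpm3, Nckap1, Wasl and Brk1 rose, from 1.12 ± 0.15 for the WAVE complex subunit Brk1 (FDR = 0.000204) to 1.72 ± 0.20 for Nckap1 (FDR = 9.55e-05). The sign of this list's median turned in all 3 comparisons with the pan T cell scale (1.90, -1.32 and 3.39). On that scale 29 were called higher and 0 lower in CD4IKK1Δ against CD4cre, 0 higher and 29 lower in CD4NIKΔ against CD4cre, where Zyx, Myl12a, Ezr, Rock1 and Actr3 were no longer called, and 40 higher and 0 lower in CD4IKK1Δ against CD4NIKΔ, with Capzb, Rock1 and Coro1b among those called higher. Most genes moved so on that scale, so nothing is read from these counts. Over all genes it called 8521 of 15653 higher and 43 lower, 121 of 15209 higher and 10469 lower, and 13401 of 16546 higher and 161 lower. Twf1 and Cotl1 were too low to be tested and Cdc42 had no row.

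Arpc1b could be set beside the other subunits of the Arp2/3 complex, which were singled out after their values were seen. In CD4IKK1Δ against CD4cre, where Arpc1b was -2.07 ± 0.88, the log2 fold changes of Arpc2, Arpc3, Arpc4, Arpc5, Actr2 and Actr3 ran from -0.21 (Arpc5) to 0.09 (Actr2) and Arpc5l was 0.26. In CD4NIKΔ against CD4cre, Actr3 rose by 2.48 ± 0.36 (edgeR's quasi-likelihood test, FDR = 0.00592), from 137 ± 50 to 770.5 ± 263 CPM (SD, n = 3 each). Arpc2 was 0.76 ± 0.19 (FDR = 0.0293), under the 2-fold limit, and Arpc3 (0.21), Arpc4 (0.31), Actr2 (0.42), Arpc5 (0.74) and Arpc5l (-0.48) did not pass. These fold changes rest on 1 value per symbol, and for low symbols that value may not hold every transcript of the gene.

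Of 18 actin genes of muscle, epithelium and neurons, 12 to 14 were tested per comparison. Their direction was mostly the reverse of that of the leukocyte-restricted lists: 5 fell and 1 rose of 12 in CD4NIKΔ against CD4cre (median -1.14; 6.99% and 10.4% of all genes), and 7 rose and 1 fell of 14 in CD4IKK1Δ against CD4NIKΔ (median 1.37; 14.8% and 18.5% of all genes), while none of 13 passed in CD4IKK1Δ against CD4cre (median 0.27), where Tagln3 was 0.37 ± 0.08 (edgeR's quasi-likelihood test, FDR = 0.0898). In CD4NIKΔ against CD4cre 0 of the list were called without CD4cre replicate 2 or 3 or CD4NIKΔ replicate 2 or 3, 2 fell and 1 rose without CD4cre replicate 1, 8 fell and 1 rose without CD4NIKΔ replicate 1, and 1 fell and 0 rose in the replicate block. On the pan T cell scale 9 rose and 0 fell in CD4IKK1Δ against CD4cre, 0 rose and 9 fell in CD4NIKΔ against CD4cre and 12 rose and 0 fell in CD4IKK1Δ against CD4NIKΔ. Over all genes, 8521 of 15653 rose on that scale in the first, 10469 of 15209 fell in the second and 13401 of 16546 rose in the third. In the fit of all 6 libraries the falls with the smallest p were those of skeletal actin Acta1 (-1.35 ± 0.29, edgeR FDR = 0.0202), synaptopodin Synpo (-1.43 ± 0.35, FDR = 0.0272), the neuronal transgelin Tagln3 (-1.23 ± 0.30, FDR = 0.0273) and Pfn2, given above, and Espn, an actin bundler of stereocilia, rose (1.46 ± 0.36, FDR = 0.0279). In CD4IKK1Δ against CD4NIKΔ, Acta1 (1.80 ± 0.23, FDR = 0.00015), Tagln3 (1.60 ± 0.22, FDR = 0.000195), Pfn2 and the nucleator Cobl (1.41 ± 0.27, FDR = 0.00123) rose and Espn fell by 2.96 ± 0.43 (FDR = 0.000273). The neural markers moved in the same direction: 5 of the 7 tested fell in CD4NIKΔ against CD4cre and 7 of 8 rose in CD4IKK1Δ against CD4NIKΔ, and their part in this list was not tested.

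**Figure D4:**
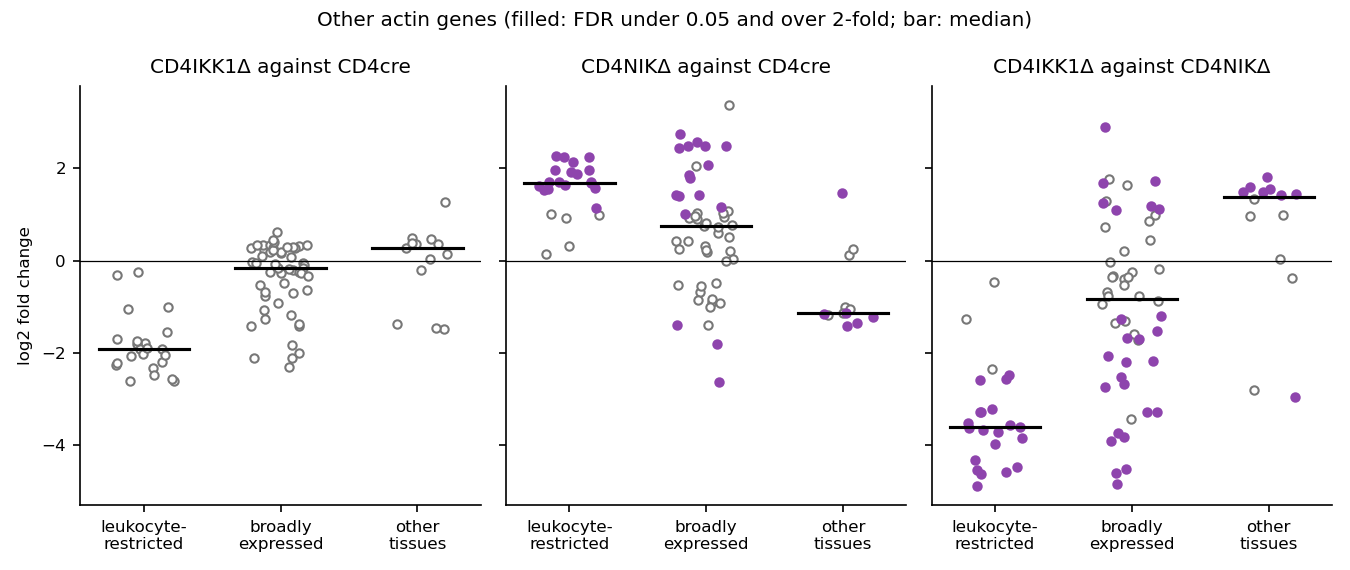
Log2 fold changes (y axis) of the other actin genes in 3 lists (x axis) and 3 comparisons; filled points had an FDR under 0.05 and over 2-fold change, and bars are medians. The medians of the leukocyte-restricted list are -1.93, 1.69 and -3.61, those of the broad list -0.17, 0.74 and -0.83, and those of the list of other tissues 0.27, -1.14 and 1.37, on the scale of TMM normalization; scaled to pan T cell markers, the leukocyte-restricted median of the second comparison and all 3 broad medians change sign.

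The genes whose profile over the 11 libraries was most like the mean profile of the 5 leukocyte-restricted members, by the root mean square difference of centred log2 CPM among 16536 non-member genes, were Skap1 (0.18), an adaptor of T cell receptor signalling, Cd5 (0.28), a T cell surface protein, Flt3l (0.34), Grap (0.38) and Slc17a9 (0.39), against a median of 2.55. Skap1 ran from 0.388 to 127 CPM and Cd5 from 1.16 to 355. The single members were farther from their own mean than these, from 0.44 (Lsp1) to 0.93 (Was). For the broad members the nearest were Cxxc1 (0.18), Rnaset2a (0.20), H13 (0.21), Slc3a2 (0.21) and Ly6e (0.21), against a median of 1.24, and Arpc1b (1.43) and Tmsb4x (0.81) were the members farthest from that mean. This likeness is a description over 11 libraries, and all genes share the preparation and depth of each library.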

How the data were processed

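CD4+ T cells were enriched from kidneys and sorted by the authors, RNA was amplified with a SMARTer kit, and reads were trimmed with Trimmomatic and quantified with kallisto. The deposited table holds 1 estimated count per gene symbol and library, not normalized; the version of kallisto, the annotation and strand handling are not given in the sources used here. The submitters' processing notes list mm10 and the study's methods GRCm39, so gene coordinates are those of GENCODE on GRCm39 and promoters those of RefSeq on GRCm38.p6.

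Estimated counts were rounded and tested with edgeR 4.0.16 (R 4.3.3): filterByExpr, TMM normalization, a robust quasi-likelihood fit, Benjamini-Hochberg adjustment over all tested genes, and calls at FDR under 0.05 and over 2-fold. Comparisons with CD4cre used the libraries of both groups, and CD4IKK1Δ against CD4NIKΔ used all 11. Log2 CPM had a prior count of 2. The SE is the log2 fold change divided by the root of F. Depth sets the floor of 3 counts at 0.117 to 0.190 CPM per library. The scripts were tested on simulated data. The same-numbered replicates of different groups were checked for shared deviations (r from -0.09 to 0.08) and were not treated as pairs.

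The members and the gene lists were chosen with earlier results of these data known. Besides the members and their paralogs, the genes named are, in each comparison and list, the 4 called genes of smallest p in each direction, or 2 of smallest p where fewer than 4 were called, the 5 of most similar profile, and the targeted genes. Alternatives were other normalizations, no filter on low counts, DESeq2 1.42.0, a replicate block, other sets of libraries and each library left out.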

Additional observations from a re-analysis of the deposited data

Results flagged for a closer look

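For the 10 members and 9 paralogs, 19 genes in all, the gap of the highest or lowest CD4IKK1Δ library (n = 5) to the nearest one was set against the range of the group. This was done on unlogged CPM, and in 6 genes the ratio exceeded Dixon's critical value. That value assumes normally distributed levels, for which chance flags about 1 in 20 groups, while unlogged CPM here spanned up to 163-fold (Rac2). The flags therefore depend on the scale and are not a test. Also, 4 of the 6 are the same library in genes that vary together and the members were chosen on their values, so the 6 are not independent and are given as a description of the spread. In CD4IKK1Δ replicate 3, Lcp1 (121 CPM, nearest library 35.8), Lsp1 (193, nearest 55.8), Pfn1 (1633, nearest 1062) and Tmsb10 (415, nearest 167) were far above the other CD4IKK1Δ libraries. Replicate 3 also had the most T cell receptor constant counts of its group (11413), and the part of this in the values was not tested. Without replicate 3, the log2 fold change in CD4IKK1Δ against CD4cre was -2.62 for Lcp1, -2.95 for Lsp1, -0.57 for Pfn1 and -1.02 for Tmsb10. That of Rac2, which was not flagged, was -3.36. In replicate 5, Rac1 (309 CPM, nearest 242) and Arpc1a (15.3, nearest 5.47) were the highest, the latter on 339 counts, and without this library Arpc1a passed the test in CD4IKK1Δ against CD4NIKΔ (-1.37).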

How the results depend on the processing

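With 1 library left out in turn, the contrast between leukocyte-restricted and broad members ran from -2.13 to -1.24 in CD4IKK1Δ against CD4cre, from 1.13 to 1.30 in CD4NIKΔ against CD4cre and from -3.35 to -2.46 in CD4IKK1Δ against CD4NIKΔ; on the pan T cell scale it was -2.02, 1.26 and -3.27. In CD4IKK1Δ against CD4cre, the count of leukocyte-restricted regulators called, 0, became 9 with DESeq2, 4 without CD4IKK1Δ replicates 1 and 2, and 0 to 1 with 1 library left out (1 without CD4IKK1Δ replicate 3), and the count of broad genes, 0, became 4 with DESeq2 and 1 with all 11 libraries in the fit. Over all genes, where the reported fit called none, DESeq2 gave 457 lower and 29 higher calls in this comparison. All 11 libraries in the fit gave 129 and 0, and no filter on low counts 48 and 0. With 1 library left out, lower calls ran from 0 to 23 and higher calls from 0 to 1. In CD4NIKΔ against CD4cre, the fit of all 11 libraries, which takes in the wide spread of CD4IKK1Δ, called 3 leukocyte-restricted regulators instead of 18 (12 to 17 with 1 library left out), and broad calls ran from 11 (without CD4NIKΔ replicate 2 or 3) to 22 with 1 library left out, against 17. Over all genes that fit gave 865 higher and 1264 lower calls, library size scaling 1382 and 1438, and the fit reported 1586 and 1063. With 1 library left out, higher calls ran from 614 to 1703 and lower calls were 117 without CD4cre replicate 2, 79 without CD4cre replicate 3, 66 without CD4NIKΔ replicate 2, 60 without CD4NIKΔ replicate 3, 786 without CD4cre replicate 1 and 1773 without CD4NIKΔ replicate 1. Library size scaling moved the median of all genes to -0.15 there and to 0.16 in CD4IKK1Δ against CD4NIKΔ. Lost calls of Pls3, Pfn2, Coro1c, Actg1 and Tmsb10 are given with their results above. The cause was not tested.

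Replicate numbers did not pair the libraries. A replicate block gave 0, 17 and 19 called leukocyte-restricted regulators and 0, 14 and 26 called broad genes in the 3 comparisons, moved Lcp1 and Rac2 to -3.09 and -4.47 in CD4IKK1Δ against CD4cre, lost the calls of Pls3, Pfn2 and Tmsb10 in CD4NIKΔ against CD4cre, and gave 995 higher and 190 lower calls there over all genes. It also called Arpc1a lower in CD4IKK1Δ against CD4NIKΔ (-1.64).

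With pan T cell markers as the scale, the median log2 fold change over all genes was 2.10, -2.15 and 4.28 in the 3 comparisons. Over all genes it called 43 lower and 8521 higher of 15653, 10469 lower and 121 higher of 15209, and 161 lower and 13401 higher of 16546. It called 0, 4 and 4 leukocyte-restricted regulators and 29 (all higher), 29 (all lower) and 40 (all higher) broad genes. The 4 of the second comparison (Arhgap45, Fgd3, Fmnl1 and Gmfg) were lower and none was among those called in the reported fit, and in the third Arhgap15, Fmnl1 and Pstpip1 were higher and Bin2 lower. Signs turned as follows on the log2 scale, by this construction. In CD4IKK1Δ against CD4cre the broad list's median became 1.90, Actb 1.98, Cfl1 1.95, Pfn1 1.62, Coro1b 0.66, Rac1 1.90 and Tmsb10 1.13. In CD4NIKΔ against CD4cre the leukocyte-restricted median became -0.38, the broad median -1.32, Was -0.85, Tmsb4x -1.80, Actb -0.54, Cfl1 -1.41, Pfn1 -0.34, Arpc1b -0.20, Coro1b -0.65, Rac1 -1.50, Arpc1a -1.16 and Tmsb10 -1.05. In CD4IKK1Δ against CD4NIKΔ the broad median became 3.39, Was 0.81, Tmsb4x 4.24, Actb 2.52, Cfl1 3.36, Pfn1 1.96, Coro1b 1.31, Rac1 3.40, Arpc1a 3.40 and Tmsb10 2.18. Lcp1, Lsp1, Coro1a and Rac2 kept their signs at smaller sizes, -0.26, -0.59, -0.96 and -0.92 in the first comparison, 1.45, 0.31, 0.33 and 0.74 in the second and -1.71, -0.90, -1.29 and -1.66 in the third. Depth limits Was, Actg1 and Arpc1a, whose lowest libraries held 4 to 35 counts.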
